A study of Danio rerio with 15 samples.

Results

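Heat shock proteins and the wider chaperone families were read on zebrafish (Danio rerio) expression arrays by their annotated gene symbols. The symbols taken were tcp1 and those that begin with hsp, dnaj, stip1, ahsa1 or serpinh1. Symbols that begin with hsf and a digit, or with cct or bag and a digit of a fixed range, were taken too. The rule found 76 probe sets for 68 genes, among 8793 genes named on the arrays, and each gene was followed by its probe set with the highest mean over all 15 arrays. All larvae were 72 h old after fertilisation when exposure began, came from adults with no history of contaminant exposure, and were kept unfed for 96 h in beakers of about 100 larvae. The 5 groups were fluoxetine at 25 µg/L, fluoxetine at 250 µg/L, sertraline at 25 µg/L, sertraline at 250 µg/L and fish water without drug (control), each with 3 beakers. Fluoxetine, an aryloxypropylamine, and sertraline, an aminotetralin, are selective serotonin reuptake inhibitors. Each array was made from the RNA of the pooled whole larvae of 1 beaker, so an amount is an average over all tissues, and fewer cells of a type cannot be told apart from less RNA per cell.

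Chaperones bind unfolded proteins and help them fold, refold or be degraded. In the heat shock response, heat shock factors bind heat shock elements in the promoters of chaperone genes and raise their transcription when unfolded proteins accumulate in the cytosol. HSP70 proteins work in cycles driven by J-domain (HSP40) co-chaperones and by exchange factors such as HSP110, HSP90 proteins mature kinases and steroid receptors, small heat shock proteins hold unfolded proteins, and the barrel-shaped chaperonins (HSP60 with HSP10 in mitochondria, CCT in the cytosol) enclose them. Many chaperones are also made in unstressed cells, and zebrafish larvae need several of them for muscle, lens and cartilage development.

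The chaperone genes that differed from control did so with fluoxetine, in both directions and in different families. At 25 µg/L fluoxetine 7 of 68 members passed the test: serpinh1b and dnajb1b rose, and hspb6, hspd1, hsf2, hspa4b and hspa4l fell. At 250 µg/L fluoxetine 6 of 68 passed: the same genes apart from hspa4b, each in the same direction. At both sertraline concentrations 0 of 68 passed. A call here is an adjusted p under 0.05 in limma, a linear model fitted to all 15502 probe sets and 15 arrays, with Benjamini-Hochberg adjustment over all probe sets. These differences are log2 values, so that 1 stands for a 2-fold difference.

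Of all probe sets tested, 2.53% were called at 25 µg/L fluoxetine, 1.15% at 250 µg/L fluoxetine, 0.0645% at 25 µg/L sertraline and 0% at 250 µg/L sertraline, beside 10.3%, 8.82%, 0% and 0% of the members. The members are the brightest probe set of each gene, while all probe sets include more dim ones. Without the dimmest 40% of probe sets, 4.93% and 2.04% were called at 25 and 250 µg/L fluoxetine, with 8 and 6 of the 54 members left. With means of a gene's probe sets, 3.63% and 1.66% of 8793 genes were called, with 7 and 6 members. The shares of all probe sets and the member counts depended on single arrays. Without fluoxetine 25 replicate 3, 6.67% of all probe sets and 8 members were called at 25 µg/L fluoxetine, and without control replicate 2 or 3 it was 1.55% or 1.45% and 5 members. At 250 µg/L fluoxetine 0.477% of all probe sets and 1 member were called without fluoxetine 250 replicate 1, 0.761% and 4 members without control replicate 1, 0.600% and 1 member without control replicate 2, and 0.742% and 2 members without control replicate 3. By direction, 0.864% of all probe sets rose and 1.66% fell at 25 µg/L fluoxetine, 0.458% rose and 0.697% fell at 250 µg/L fluoxetine, and 0.00645% rose and 0.0581% fell at 25 µg/L sertraline. The 6 members called at both fluoxetine concentrations compare with 0.793% of all probe sets called at both in one direction. At an unadjusted p under 0.05, limma gave 19, 15, 2 and 5 of the 68 members, which is 27.9%, 22.1%, 2.94% and 7.35% of them, beside 19.2%, 10.7%, 3.99% and 6.34% of all probe sets. The median difference of the members from control lay close to 0 in each comparison: -0.02 at 25 µg/L fluoxetine, -0.02 at 250 µg/L fluoxetine, -0.05 at 25 µg/L sertraline and 0.00 at 250 µg/L sertraline, beside medians of 0.06, -0.02, -0.03 and -0.04 over all probe sets. The arrays of the exposed group did not overlap the control arrays in 21 members at 25 µg/L fluoxetine, 15 at 250 µg/L fluoxetine, 6 at 25 µg/L sertraline and 10 at 250 µg/L sertraline (30.9%, 22.1%, 8.82% and 14.7%), where 25.3%, 14.8%, 9.78% and 14.3% of all probe sets did not. The 4 comparisons share the 3 control arrays. The 95% interval of a member's difference reached 0.24 to either side at the median.

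**Figure D1:**
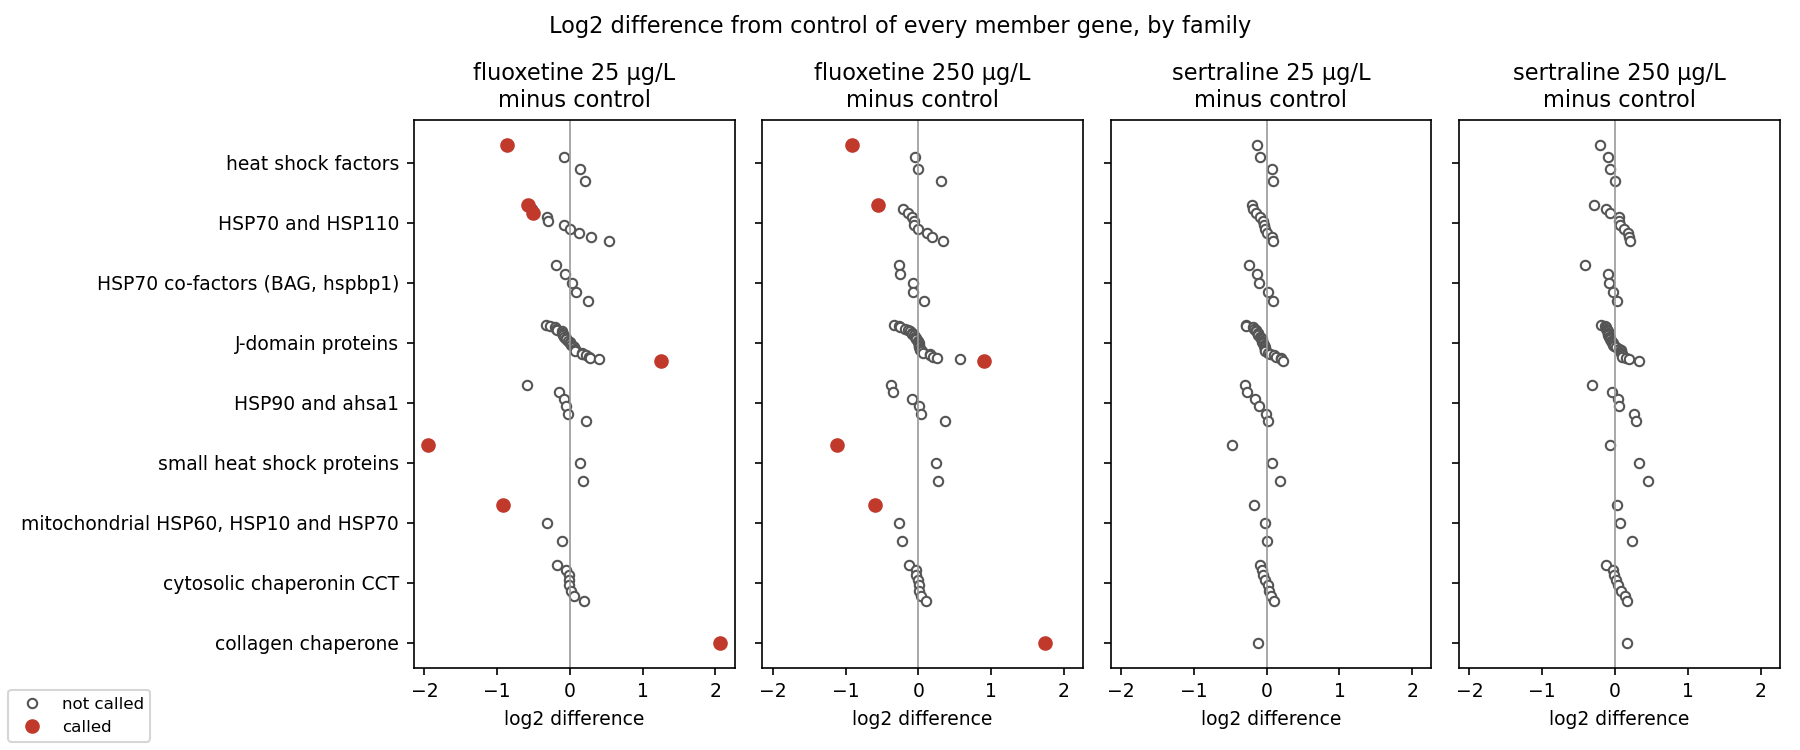
Log2 difference from control (x axis) of all 68 member genes, 1 point per gene, arranged by family (rows) in each of the 4 comparisons with control (panels). Filled points passed the test (7 and 6 at 25 and 250 µg/L fluoxetine, 0 in both sertraline panels); most open points lie near 0.

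The members that passed were then read array by array. In all 7 genes the 6 fluoxetine arrays lay on one side of the other 9 arrays, 2 genes above and 5 below, and these were the only members for which this held; 1.77% of all probe sets showed such a gap. This grouping of the arrays was chosen after the values were seen. Tested over the 5 groups at once with limma's F test, the same 7 members passed for any difference among the groups, with 2.79% of all probe sets passing. Both readings use the arrays on which the 7 genes were called, and are no separate evidence about fluoxetine. Each of the 7 genes had a single probe set, so no second probe set bears on it.

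**Figure D2:**
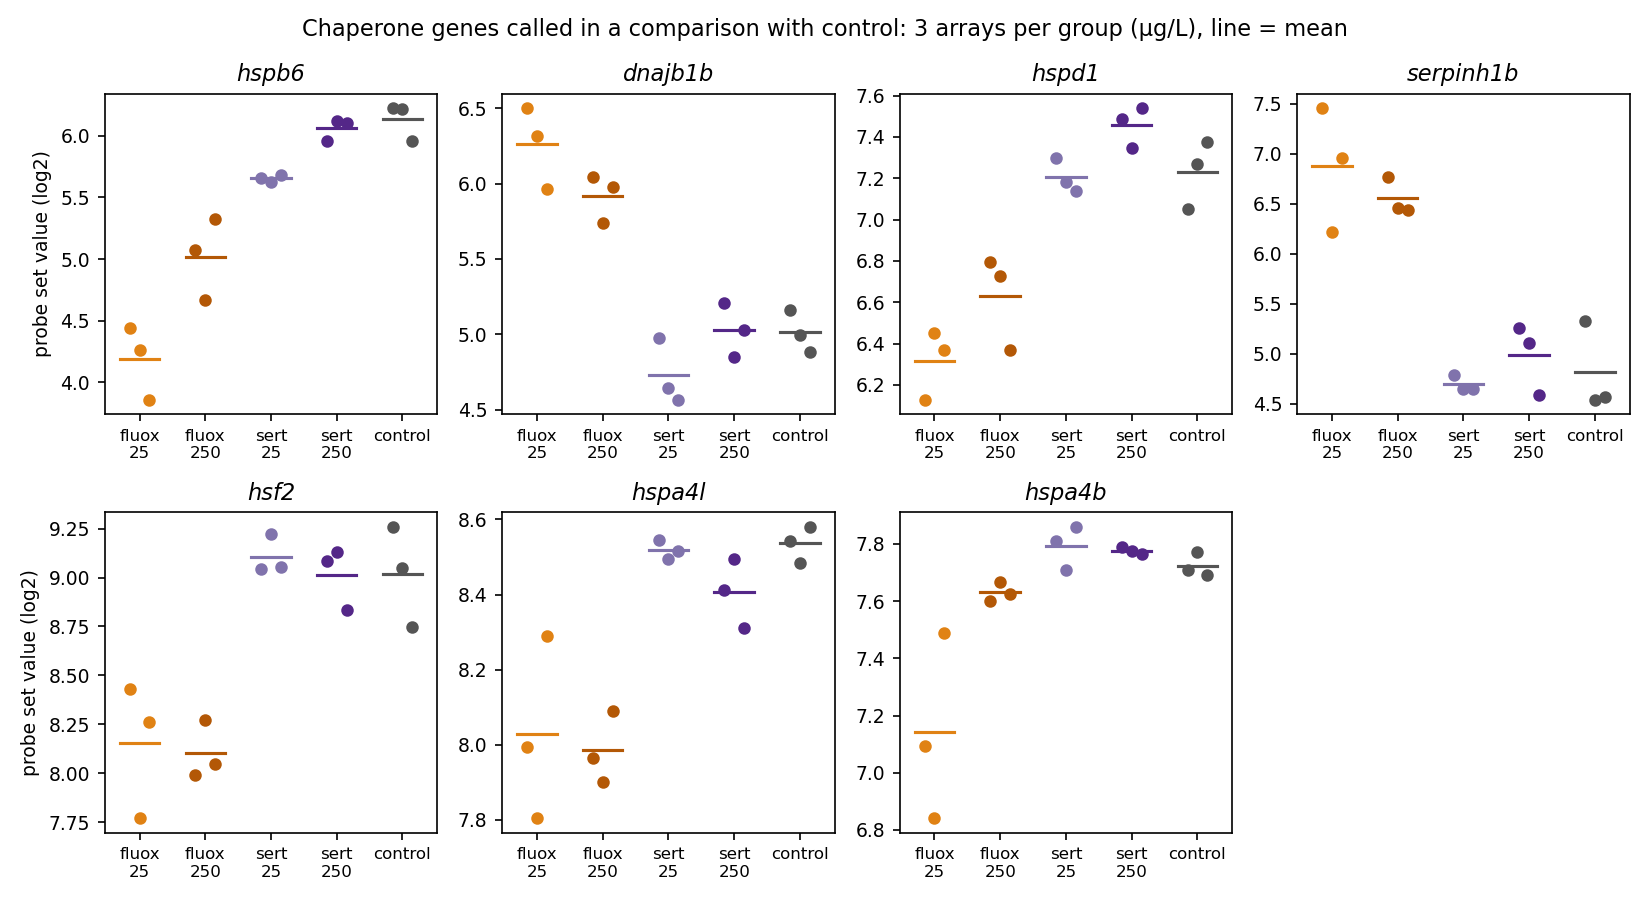
Probe set value (log2, y axis, scaled per panel) of the 7 chaperone genes called in a comparison with control, with 3 arrays per group as points and the group mean as a line; concentrations are in µg/L. The 6 fluoxetine arrays lie apart from all sertraline and control arrays in each panel, by a small margin in hspa4l and hspa4b.

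Of the heat shock factor genes, hsf2 fell with fluoxetine and the others did not pass. The gene hsf2 encodes a factor that binds heat shock elements and is known in mammals for roles in development. Its values were 8.43, 7.77 and 8.26 at 25 µg/L fluoxetine, 7.99, 8.27 and 8.05 at 250 µg/L fluoxetine, 9.05, 9.22 and 9.05 at 25 µg/L sertraline, 9.08, 9.13 and 8.83 at 250 µg/L sertraline, and 9.26, 9.05 and 8.75 in control. Every fluoxetine array was lower than every control array. The difference from control was -0.87 ± 0.17 (SE, n = 3 per group, adjusted p = 0.0145) at 25 µg/L fluoxetine and -0.92 ± 0.17 (adjusted p = 0.0193) at 250 µg/L fluoxetine in limma. The call at 25 µg/L ended without control replicate 1 (adjusted p = 0.0515) or 2 (0.0585), and that at 250 µg/L with omission of fluoxetine 250 replicate 1 (0.092), fluoxetine 250 replicate 3 (0.062), control replicate 1 (0.0786) or control replicate 2 (0.0753). Neither call was kept when the 6 arrays of the 2 groups were fitted alone (adjusted p = 0.218 and 0.0851 in limma).

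The gene hsf1 encodes the factor that drives the response to heat. It had 5.80, 5.64 and 5.31 at 25 µg/L fluoxetine, 5.72, 5.83 and 6.35 at 250 µg/L fluoxetine, 5.94, 5.64 and 5.63 at 25 µg/L sertraline, 5.40, 5.44 and 5.53 at 250 µg/L sertraline, and 5.32, 5.50 and 6.17 in control. The control arrays alone spanned most of this range, and no exposed group was apart from them. Its differences from control ran from -0.20 to 0.31, each ± 0.21 (SE), and none passed. The amount of hsf1 mRNA does not measure the activity of the protein, which is set largely after translation. The remaining members matched by this prefix, hsf5 and hsf2bp, whose product binds HSF2, had means among the lowest 40% of probe sets and did not pass.

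In the HSP70 and HSP110 families 2 of 10 genes fell at 25 µg/L fluoxetine and 1 of 10 at 250 µg/L, and 0 rose. Of all probe sets 1.66% and 0.697% fell at these concentrations, and 0.864% and 0.458% rose. At an unadjusted p under 0.05 limma gave 5 and 2 of the 10, beside 19.2% and 10.7% of all probe sets. Both genes that fell, hspa4l and hspa4b, encode HSP110-type proteins, which exchange the nucleotide of HSP70. The values of hspa4l were 7.99, 7.80 and 8.29 at 25 µg/L fluoxetine, 7.96, 7.90 and 8.09 at 250 µg/L fluoxetine, 8.54, 8.49 and 8.52 at 25 µg/L sertraline, 8.41, 8.50 and 8.31 at 250 µg/L sertraline, and 8.54, 8.48 and 8.58 in control. The highest fluoxetine array of hspa4l, 8.29, lay just under the lowest other array, 8.31. It fell by 0.51 ± 0.10 (adjusted p = 0.0175) and by 0.55 ± 0.10 (adjusted p = 0.0205) at 25 and 250 µg/L fluoxetine in limma. These 2 falls are small, and each call depended on single arrays: the first ended without fluoxetine 25 replicate 2 (adjusted p = 0.0531) or control replicate 1 (0.0503) or 3 (0.0738), the second without fluoxetine 250 replicate 1 (0.086) or 2 (0.0782) or any 1 control array (0.0604 to 0.0777). The first was also lost when the 6 arrays of the 2 groups were fitted alone (adjusted p = 0.241 in limma).

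The other HSP110-type gene, hspa4b, fell at the lower fluoxetine concentration. It had 7.10, 6.84 and 7.49 at 25 µg/L fluoxetine, 7.60, 7.67 and 7.63 at 250 µg/L fluoxetine, 7.81, 7.71 and 7.86 at 25 µg/L sertraline, 7.79, 7.77 and 7.77 at 250 µg/L sertraline, and 7.71, 7.77 and 7.69 in control. The arrays of 25 µg/L fluoxetine scattered most (SD 0.33, against 0.04 in control), and those of the other groups lay within a narrow range. The difference was -0.58 ± 0.12 (adjusted p = 0.0189) at 25 µg/L and -0.09 ± 0.12 (adjusted p = 0.93) at 250 µg/L in limma. The call ended without fluoxetine 25 replicate 1 (adjusted p = 0.053) or control replicate 2 (0.0828) or 3 (0.06). It was also lost when the 6 arrays of the 2 groups were fitted alone (adjusted p = 0.282 in limma). The related gene hspa4a, also of the HSP110 type, differed from control by 0.29 and 0.18 at 25 and 250 µg/L fluoxetine, which did not pass.

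The gene hsp70.3 is a heat-inducible HSP70 gene with near copies in zebrafish. It was read at 5.81, 5.81 and 5.99 at 25 µg/L fluoxetine, 5.32, 5.86 and 5.86 at 250 µg/L fluoxetine, 5.27, 5.15 and 5.04 at 25 µg/L sertraline, 5.63, 5.48 and 5.53 at 250 µg/L sertraline, and 5.29, 5.17 and 5.56 in control. The 3 arrays of 25 µg/L fluoxetine were all above control, while those of 250 µg/L fluoxetine overlapped control. The differences from control were 0.53 ± 0.14 (adjusted p = 0.0697) and 0.34 ± 0.14 (adjusted p = 0.377) with fluoxetine and -0.19 ± 0.14 and 0.21 ± 0.14 with sertraline, none of which passed in limma. The first of these passed when the dimmest 40% of probe sets were left out (adjusted p = 0.0466) or without fluoxetine 250 replicate 1 (0.0155). The probe set is of the kind that can share probes with near-identical genes, so the reading may belong to several HSP70 copies.

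The constitutive HSP70 of the cytosol, hspa8, stayed within narrow limits: 12.92, 13.12 and 12.79 at 25 µg/L fluoxetine, 12.97, 13.03 and 13.10 at 250 µg/L fluoxetine, 13.05, 13.04 and 13.02 at 25 µg/L sertraline, 13.17, 13.04 and 13.09 at 250 µg/L sertraline, and 12.96, 13.02 and 13.11 in control. All groups overlapped. The 95% intervals of its 4 differences from control ran from -0.25 to 0.24 at their widest. The HSP70 of the endoplasmic reticulum, hspa5 (BiP), whose transcription rises in the unfolded protein response, differed from control by 0.00 and 0.12 at 25 and 250 µg/L fluoxetine and by -0.04 and 0.19 at 25 and 250 µg/L sertraline, each ± 0.14, and did not pass. Of the remaining members of the family, hspa12a, hspa14, hspa1b and hspa8b did not pass in any comparison with control. At 25 µg/L fluoxetine hspa12a, picked out after its values were seen, had 5.46, 5.59 and 6.28, against 5.92, 6.33 and 6.66 in control. It passed without fluoxetine 25 replicate 3, where 6.67% of all probe sets were called. It also passed without that array and sertraline 250 replicate 2, where 6.51% were called. The gene hspa14 passed at 25 µg/L fluoxetine without fluoxetine 25 replicate 1, where 2.85% were called.

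Among the 28 J-domain genes, which supply HSP70 with its substrates, dnajb1b rose at both fluoxetine concentrations and the other 27 did not pass. The protein of dnajb1b is the zebrafish counterpart of the heat-inducible cytosolic HSP40 of mammals. Its values were 6.50, 6.32 and 5.97 at 25 µg/L fluoxetine, 6.04, 5.74 and 5.98 at 250 µg/L fluoxetine, 4.97, 4.65 and 4.57 at 25 µg/L sertraline, 5.21, 4.85 and 5.03 at 250 µg/L sertraline, and 5.16, 5.00 and 4.88 in control. The lowest fluoxetine array, 5.74, was well above the highest other array, 5.21. The rise was 1.25 ± 0.15, or 2.37-fold (adjusted p = 0.000592), at 25 µg/L and 0.90 ± 0.15, or 1.87-fold (adjusted p = 0.0117), at 250 µg/L in limma. The call at 25 µg/L was kept in all 25 alternative fits, while that at 250 µg/L ended without fluoxetine 250 replicate 1 (adjusted p = 0.0684) or control replicate 2 (0.0535) or 3 (0.0527).

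Its paralogue dnajb1a had 3.54, 3.63 and 3.63 at 25 µg/L fluoxetine, 3.80, 3.68 and 4.37 at 250 µg/L fluoxetine, 3.78, 3.43 and 3.30 at 25 µg/L sertraline, 3.52, 3.42 and 3.33 at 250 µg/L sertraline, and 3.35, 3.28 and 3.49 in control; this gene was picked out after its values were seen. The fluoxetine arrays were above the control arrays, and the differences of 0.22 ± 0.16 (adjusted p = 0.405) and 0.58 ± 0.16 (adjusted p = 0.134) did not pass in limma. Its mean, like those of 9 other J-domain genes, was among the lowest 40% of probe sets, where a change may go unseen. Over the J-domain family the median difference from control was 0.00 at 25 µg/L fluoxetine, 0.00 at 250 µg/L fluoxetine, -0.05 at 25 µg/L sertraline and -0.04 at 250 µg/L sertraline. At an unadjusted p under 0.05 limma gave 6 and 5 of the 28 at 25 and 250 µg/L fluoxetine, beside 19.2% and 10.7% of all probe sets. In alternative fits dnajc4 passed at 25 µg/L fluoxetine without sertraline 250 replicate 1, where 2.32% of all probe sets were called. The gene dnajc5ga passed at 250 µg/L fluoxetine without fluoxetine 250 replicate 3, where 0.961% were called.

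The HSP90 genes and the ahsa1 genes, whose products speed the ATPase cycle of HSP90, gave 0 calls among 6 members in each comparison with control. The constitutive cytosolic gene hsp90ab1 had 13.16, 12.82 and 12.91 at 25 µg/L fluoxetine, 13.00, 13.01 and 12.97 at 250 µg/L fluoxetine, 12.98, 12.99 and 13.03 at 25 µg/L sertraline, 12.85, 12.98 and 13.00 at 250 µg/L sertraline, and 13.01, 13.04 and 12.92 in control. Its groups overlapped, with differences of -0.04 to 0.01, each ± 0.08. The endoplasmic reticulum form hsp90b1 (GRP94) differed by -0.09 at both fluoxetine concentrations and by -0.16 and 0.26 at 25 and 250 µg/L sertraline, each ± 0.16.

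The neighbouring cytosolic genes hsp90aa1.1 and hsp90aa1.2 did not pass in any comparison with control. In zebrafish hsp90aa1.1 is needed for the folding of myosin in skeletal muscle. It had 5.56, 6.15 and 5.69 at 25 µg/L fluoxetine, 6.44, 5.72 and 5.86 at 250 µg/L fluoxetine, 6.31, 5.82 and 6.22 at 25 µg/L sertraline, 6.76, 6.53 and 6.75 at 250 µg/L sertraline, and 6.44, 6.32 and 6.40 in control. The arrays of 25 µg/L fluoxetine and of 25 µg/L sertraline were below control and those of 250 µg/L sertraline above it, without passing: the differences of these 3 groups were -0.59 ± 0.19 (adjusted p = 0.145), -0.27 ± 0.19 and 0.29 ± 0.19, in that order. Its difference at 250 µg/L fluoxetine was -0.38 ± 0.19 (adjusted p = 0.546). The differences of hsp90aa1.2 from control were 0.22 ± 0.12 (adjusted p = 0.306) and 0.37 ± 0.12 (adjusted p = 0.222) at 25 and 250 µg/L fluoxetine; the other probe set of that gene gave -0.58 ± 0.48 and 0.36 ± 0.48. That gene was also picked out after its values were seen. At 250 µg/L fluoxetine hsp90aa1.2 passed without fluoxetine 25 replicate 3, where 1.59% of all probe sets were called. It also passed there without that array and sertraline 250 replicate 2, where 1.44% were called.

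**Figure D3:**
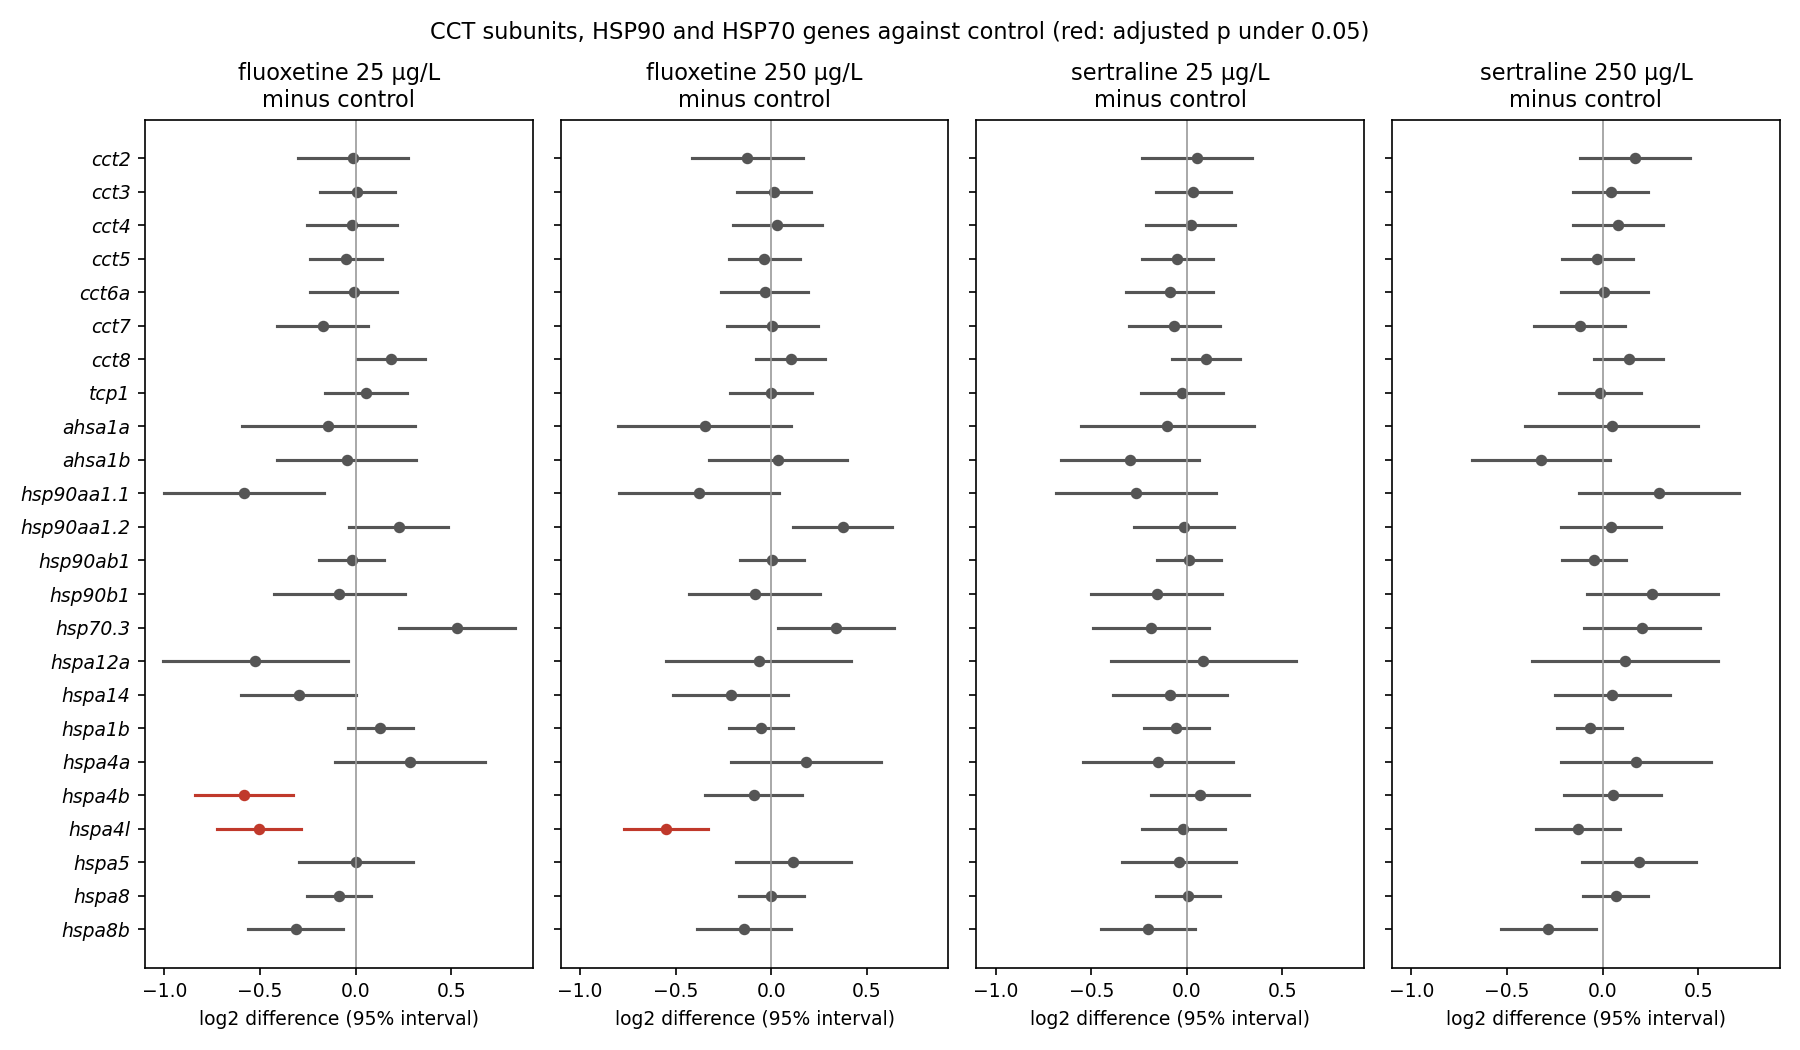
Log2 difference from control (points, x axis) with its 95% interval (bars) for the 8 CCT subunit genes, the 6 HSP90 and ahsa1 genes and the 10 HSP70 and HSP110 genes (rows) in each comparison with control (panels). The CCT intervals all reach no further than -0.41 and 0.46, and only hspa4b and hspa4l are called.

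Among the 3 small heat shock protein genes, hspb6 fell strongly with fluoxetine. Its protein, HSP20, is known in mammals from smooth, cardiac and skeletal muscle. The values were 4.44, 4.26 and 3.86 at 25 µg/L fluoxetine, 5.07, 4.67 and 5.32 at 250 µg/L fluoxetine, 5.66, 5.62 and 5.68 at 25 µg/L sertraline, 5.96, 6.12 and 6.11 at 250 µg/L sertraline, and 6.22, 6.22 and 5.95 in control. The groups formed steps: 25 µg/L fluoxetine was lowest, 250 µg/L fluoxetine next and 25 µg/L sertraline next, with no overlap between these groups, while 250 µg/L sertraline overlapped control. The differences from control were -1.94 ± 0.16 (3.85-fold lower, adjusted p = 2.83e-05) and -1.11 ± 0.16 (2.16-fold lower, adjusted p = 0.00547) at 25 and 250 µg/L fluoxetine in limma. For sertraline they were -0.48 ± 0.16 (adjusted p = 0.936) and -0.07 ± 0.16 (adjusted p = 0.911).

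The hspb6 call was kept in all 25 alternative fits at 25 µg/L fluoxetine and in 24 of 25 at 250 µg/L, where a fit of the 6 arrays of these 2 groups alone gave adjusted p = 0.0812. It was the only member called at 250 µg/L fluoxetine in every fit that left out 1 array. A list of 12 fast skeletal muscle genes had array means of 13.34 to 13.39 at 25 µg/L fluoxetine, 13.36 to 13.39 at 250 µg/L fluoxetine and 13.24 to 13.42 in control, and 0 of these 12 passed in either comparison. Smooth and cardiac muscle genes were not listed, and the part of muscle in the fall of hspb6 was not tested. The other small heat shock protein genes, hspb1 (HSP27) and hspb8, differed by 0.18 and 0.14 at 25 µg/L fluoxetine and by 0.27 and 0.24 at 250 µg/L, and did not pass. At 250 µg/L sertraline the 3 arrays of hspb1, 5.41, 5.05 and 4.90, were above the control arrays, 4.44, 4.73 and 4.83, by 0.45 ± 0.15 (adjusted p = 0.592).

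In the mitochondrial folding machinery hspd1, the HSP60 chaperonin, fell with fluoxetine. It had 6.13, 6.45 and 6.37 at 25 µg/L fluoxetine, 6.79, 6.73 and 6.37 at 250 µg/L fluoxetine, 7.30, 7.18 and 7.14 at 25 µg/L sertraline, 7.49, 7.35 and 7.54 at 250 µg/L sertraline, and 7.05, 7.27 and 7.37 in control. Every fluoxetine array was below every other array. The falls were -0.91 ± 0.12 (1.89-fold lower, adjusted p = 0.0012) at 25 µg/L and -0.60 ± 0.12 (1.52-fold lower, adjusted p = 0.032) at 250 µg/L in limma. The first was kept without any 1 array but not with the 6 arrays of the 2 groups alone (adjusted p = 0.0501), and the second was lost in 11 of 25 alternative fits, with adjusted p up to 0.168. Without an array of its own groups it ended without any fluoxetine 250 array (adjusted p = 0.0535 to 0.0931) and without control replicate 2 (0.12) or 3 (0.139).

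The HSP10 gene hspe1, whose product caps HSP60, lies next to hspd1 in the zebrafish genome, per the RefSeq gene table of assembly GRCz12tu. It had 7.45, 7.77 and 7.51 at 25 µg/L fluoxetine, 7.79, 7.61 and 7.59 at 250 µg/L fluoxetine, 7.77, 7.57 and 7.82 at 25 µg/L sertraline, 7.91, 7.88 and 8.11 at 250 µg/L sertraline, and 8.02, 7.82 and 7.83 in control. The fluoxetine arrays were below control, as were those of 25 µg/L sertraline. The differences were -0.32 ± 0.10 (adjusted p = 0.142) and -0.23 ± 0.10 (0.459) for fluoxetine at 25 and 250 µg/L. For sertraline at these concentrations they were -0.17 ± 0.10 (adjusted p = 0.999) and 0.07 ± 0.10 (0.868), and none passed in limma. The mitochondrial HSP70 hspa9 differed by -0.10 ± 0.10 and -0.27 ± 0.10 (adjusted p = 0.517 and 0.288) with fluoxetine. The mitochondrial J-domain genes dnaja3a, dnaja3b and dnajc19 did not pass. These 6 genes were grouped after the values were seen and are not a full list of mitochondrial members. Of the 6, 1 fell in each fluoxetine comparison, where 1.66% and 0.697% of all probe sets fell at 25 and 250 µg/L. At an unadjusted p under 0.05 limma gave 3 and 4 of the 6, beside 19.2% and 10.7% of all probe sets.

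The cytosolic chaperonin CCT, which folds actin and tubulin, was represented by tcp1 and 7 cct genes, 1 for each of its 8 kinds of subunit. None of the 8 passed in any comparison with control, and at an unadjusted p under 0.05 limma gave 1 at 25 µg/L fluoxetine and 0 in the others. Such a p was found for 19.2% and 10.7% of all probe sets at 25 and 250 µg/L fluoxetine. For sertraline it was 3.99% and 6.34%. The differences lay between -0.17 and 0.19 at 25 µg/L fluoxetine, -0.12 and 0.10 at 250 µg/L fluoxetine, -0.09 and 0.10 at 25 µg/L sertraline, and -0.12 and 0.17 at 250 µg/L sertraline. Their 95% intervals together reached from -0.41 to 0.46. As examples, tcp1 had 9.25, 9.46 and 9.19 at 25 µg/L fluoxetine and 9.31, 9.20 and 9.22 at 250 µg/L fluoxetine, against 9.07, 9.25 and 9.41 in control, and cct2 had 10.30, 10.87 and 10.61 at 25 µg/L fluoxetine and 10.47, 10.64 and 10.33 at 250 µg/L fluoxetine, against 10.54, 10.48 and 10.79 in control. For both genes the groups overlapped.

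The collagen chaperone serpinh1b (HSP47) showed the largest rise of the 68 members. Its protein resides in the endoplasmic reticulum, binds procollagen, and its gene is also heat-inducible. It had 7.46, 6.22 and 6.96 at 25 µg/L fluoxetine, 6.77, 6.46 and 6.44 at 250 µg/L fluoxetine, 4.79, 4.65 and 4.65 at 25 µg/L sertraline, 5.25, 5.11 and 4.59 at 250 µg/L sertraline, and 5.33, 4.54 and 4.57 in control. The lowest fluoxetine array, 6.22, was above the highest other array, 5.33, although the arrays of 25 µg/L fluoxetine scattered (SD 0.63). The rise was 2.06 ± 0.29, or 4.18-fold (adjusted p = 0.00171), at 25 µg/L and 1.74 ± 0.29, or 3.34-fold (adjusted p = 0.0114), at 250 µg/L in limma.

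The serpinh1b call at 25 µg/L was kept without any 1 array but not in a fit of the 6 arrays of the 2 groups alone (adjusted p = 0.117); that at 250 µg/L ended without fluoxetine 250 replicate 1 (0.0635) or control replicate 2 (0.0604) or 3 (0.0505). Of 9 measured genes of collagen-making cells 0 passed in each comparison with control, and 2 of the 9 had means among the lowest 40% of probe sets. Their array means were 7.38 to 7.78 at 25 µg/L fluoxetine and 7.49 to 7.68 at 250 µg/L fluoxetine, against 7.50 to 7.68 in control, which overlap. The part of these cells in the rise of serpinh1b was not tested. Chaperones of the endoplasmic reticulum other than serpinh1b were also without calls: 0 of 7 members (hspa5, hsp90b1, dnajb11, dnajc1, dnajc3a, dnajc3b and dnajc10) passed in each comparison with control, and limma gave 2 of them at 25 µg/L fluoxetine and 0 in the others at an unadjusted p under 0.05. At 25 µg/L fluoxetine 19.2% of all probe sets had such a p. There dnajb11 differed by -0.33, and the smallest adjusted p of the 7 was 0.0702 in limma. The gene dnajb11, picked out after its values were seen, passed there with quantile normalization, with the trended and robust prior and without fluoxetine 250 replicate 2. Of these 7, dnajb11, dnajc10, dnajc3a and dnajc3b had means among the lowest 40% of probe sets. The set of 7, like that of mitochondrial genes, was put together after the values were seen.

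Co-factors that regulate HSP70 were measured through bag2, bag4, bag5, bag6 and hspbp1, and 0 of 5 passed in each comparison with control. Their differences lay between -0.41 and 0.25 over the 4 comparisons. The genes stip1, bag3, serpinh1a and hsp70l, which the rule or the list of family representatives would take, were not analysed here, as no probe set with 1 symbol carried them.

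The drugs were compared at matched concentrations to ask whether chaperone genes respond differently to them. At 25 µg/L 9 of 68 members (13.2%) differed between sertraline and fluoxetine, 5 higher and 4 lower in sertraline, where 2.10% of all probe sets were called, 1.03% higher and 1.06% lower. At 250 µg/L 5 of 68 members (7.35%) differed, 3 higher and 2 lower in sertraline, where 1.37% of all probe sets were called, 0.768% higher and 0.606% lower. The genes hspb6, hspd1, hsf2, dnajb1b and serpinh1b differed at both concentrations and in the same direction. Called at both concentrations in one direction were 0.523% of all probe sets. Here too single arrays moved the shares. At 25 µg/L they were 5.29%, 1.18% and 6.50% of all probe sets, with 11, 6 and 9 members, without fluoxetine 25 replicate 1, 2 and 3, and 0.671% to 0.884%, with 5 members, without any 1 sertraline 25 array. For 250 µg/L they were 0.652% and 0.864%, with 3 and 2 members, without fluoxetine 250 replicate 1 and 3, and 0.581% to 0.690%, with 2 to 4 members, without any 1 sertraline 250 array. These comparisons use the same fluoxetine arrays as those with control, and are no separate evidence about fluoxetine. RNA quality, read as the GAPDH 3' minus 5' value, did not overlap between the drugs at 250 µg/L. It was 1.16 to 1.74 with fluoxetine and 1.77 to 3.16 with sertraline. With it as a covariate, chosen after seeing the data, only hspb6 stayed called there. Adjusted p in limma was 0.136 for dnajb1b, 0.0543 for hspd1, 0.130 for serpinh1b and 0.158 for hsf2. At 25 µg/L, where these values overlapped, all 5 genes stayed called. The part of RNA quality was not tested.

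For hspb6 the difference sertraline minus fluoxetine was 1.47 (95% interval 1.12 to 1.82, adjusted p = 0.000461) at 25 µg/L and 1.04 (0.69 to 1.39, adjusted p = 0.00831) at 250 µg/L in limma. For dnajb1b it was -1.53 (-1.86 to -1.20, adjusted p = 0.000208) and -0.89 (-1.22 to -0.56, adjusted p = 0.0139). The gene serpinh1b differed by -2.18 (-2.81 to -1.56, adjusted p = 0.00212) and -1.57 (-2.20 to -0.95, adjusted p = 0.0206). The chaperonin gene hspd1 differed by 0.89 (0.62 to 1.15, adjusted p = 0.00274) and 0.83 (0.56 to 1.09, adjusted p = 0.00665), and hsf2 by 0.95 (0.59 to 1.31, adjusted p = 0.0123) and 0.91 (0.55 to 1.27, adjusted p = 0.0195). In each of these 5 genes the 3 sertraline arrays did not overlap the 3 fluoxetine arrays of the same concentration. Groups were apart in this way for 17 members (25%) at 25 µg/L and 20 members (29.4%) at 250 µg/L, where 35.7% and 16.8% of all probe sets were.

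At 25 µg/L hspa4l, hspa4b, hsp70.3 and dnajc4 also differed between the drugs. The HSP110-type genes were higher in sertraline, by 0.49 (0.27 to 0.71, adjusted p = 0.0299) for hspa4l and 0.65 (0.40 to 0.91, adjusted p = 0.0151) for hspa4b. The inducible gene hsp70.3 was lower in sertraline, by -0.72 (-1.02 to -0.42, adjusted p = 0.0217), and so was the J-domain gene dnajc4, by -0.46 (-0.69 to -0.23, adjusted p = 0.0492); the last was picked out after its values were seen, and its call was lost in 19 of 25 alternative fits. Calls of the other 3 genes ended without single arrays. For hspa4l these were fluoxetine 25 replicate 2 or any sertraline 25 array (adjusted p = 0.0747 to 0.125), for hsp70.3 the same arrays (0.0519 to 0.0846), and for hspa4b sertraline 25 replicate 1 (0.0709) or 3 (0.0658). With the 6 arrays of the 2 groups alone, limma gave adjusted p = 0.207 for hspa4l and 0.203 for hspa4b. At 250 µg/L these 4 genes differed by 0.42 (0.20 to 0.64, adjusted p = 0.0689), 0.14 (-0.11 to 0.40), -0.13 (-0.44 to 0.17) and 0.10 (-0.13 to 0.33) and did not pass. The difference of hspa4l at 250 µg/L passed in 4 of 25 alternative fits, with quantile normalization (adjusted p = 0.0342), with array weights (0.0163) and without fluoxetine 25 replicate 2 (0.0265) or 3 (0.014).

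Between the drugs 0 of 6 HSP90 and ahsa1, 0 of 5 HSP70 co-factor and 0 of 8 CCT genes passed at either concentration. At an unadjusted p under 0.05 limma gave 0, 2 and 0 of them at 25 µg/L and 3, 0 and 1 at 250 µg/L. At 25 and 250 µg/L limma gave such a p for 28% and 12% of all probe sets, and for 29.4% and 25% of members. For hsp90ab1 the 95% interval was -0.14 to 0.20 at 25 µg/L and -0.22 to 0.12 at 250 µg/L, and for tcp1 it was -0.30 to 0.13 and -0.22 to 0.21. In families that did hold calls, the interval for hspa8 was -0.08 to 0.26 at 25 µg/L and -0.10 to 0.23 at 250 µg/L. For hsf1 the intervals were -0.31 to 0.62 and -0.97 to -0.05 (adjusted p = 0.354 at 250 µg/L), which leave room for larger differences. The gene hsp90aa1.1 at 250 µg/L was 0.67 (0.25 to 1.09) higher in sertraline with groups that did not overlap, and did not pass (adjusted p = 0.135) except without fluoxetine 250 replicate 1 (0.0447). In the comparison at 250 µg/L the call of serpinh1b ended without fluoxetine 250 replicate 1 (0.0808) or 3 (0.0506) or sertraline 250 replicate 2 (0.0565) or 3 (0.0796), that of dnajb1b without fluoxetine 250 replicate 1 (0.0607) or 3 (0.0502) or sertraline 250 replicate 2 (0.0571), and that of hsf2 without either of these fluoxetine arrays (0.0768 and 0.0666) or sertraline 250 replicate 1 (0.0761) or 2 (0.0734). At 25 µg/L the call of hsf2 ended without sertraline 25 replicate 2 (0.0566). With the 6 arrays of the 2 groups alone in limma, the calls of hsf2 (adjusted p = 0.127) and serpinh1b (0.0614) ended at 25 µg/L. Those of hspb6 (0.0609) and hspd1 (0.0539) ended at 250 µg/L in such a fit.

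**Figure D4:**
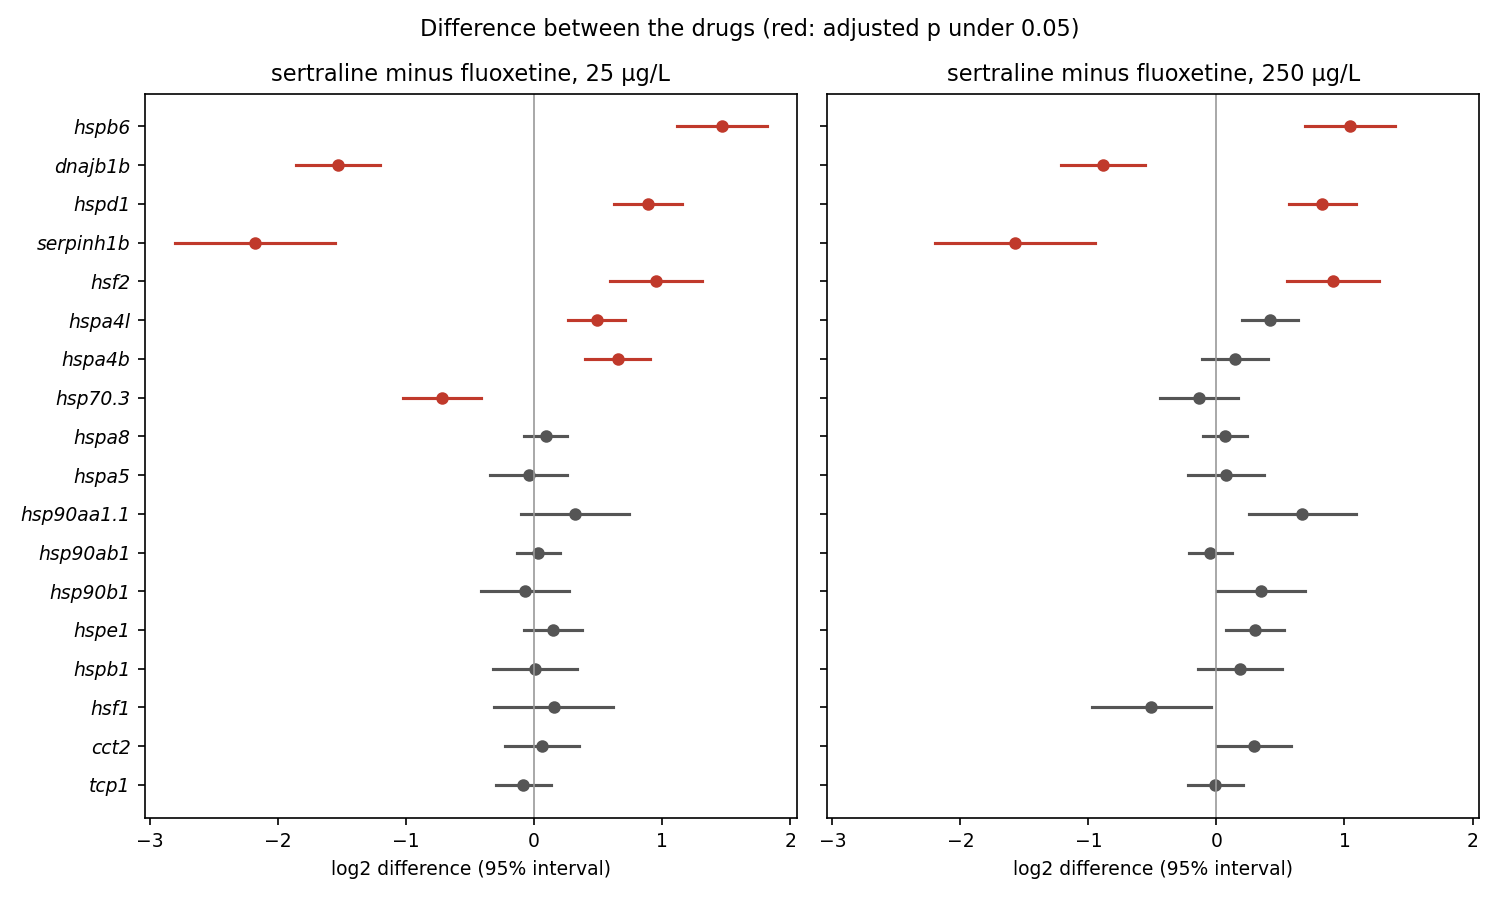
Log2 difference sertraline minus fluoxetine (points, x axis) with its 95% interval (bars) for 18 chaperone genes (rows), at 25 µg/L and 250 µg/L (panels). Red marks an adjusted p under 0.05: serpinh1b and dnajb1b are lower and hspb6, hspd1 and hsf2 higher in sertraline at both concentrations, and hspa8 and hsp90ab1 lie close to 0.

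The concentrations of each drug were compared to ask whether the response depends on dose. Between 250 and 25 µg/L fluoxetine 0 of 68 members passed in limma (0.252% of all probe sets did), and 13 had an unadjusted p under 0.05 (19.1%, against 18.8% of all probe sets). The groups did not overlap in 10 members (14.7%), against 22.7% of all probe sets. For hspb6 the value was 0.83 ± 0.16 higher at 250 µg/L, and the groups did not overlap (adjusted p = 0.0625). That difference passed in 6 of 25 alternative fits, among them centring of the arrays (adjusted p = 0.0458) and omission of fluoxetine 25 replicate 1 (0.0253) or fluoxetine 250 replicate 2 (0.0196). For hspa4b it was 0.49 ± 0.12 (adjusted p = 0.14), and it passed without fluoxetine 25 replicate 3 (0.00245). The remaining genes called against control differed by -0.34 ± 0.15 (dnajb1b), 0.31 ± 0.12 (hspd1), -0.32 ± 0.29 (serpinh1b), -0.05 ± 0.17 (hsf2) and -0.04 ± 0.10 (hspa4l), with adjusted p from 0.246 to 0.874.

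Between 250 and 25 µg/L sertraline 0 of 68 members passed in limma, 9 at an unadjusted p under 0.05 (13.2%, against 4.86% of all probe sets), and 0% of all probe sets were called. In 16 members (23.5%) the groups did not overlap in either direction, against 11.6% of all probe sets. Examples of the 16, picked after the values were seen, were hsp90aa1.1 (0.56 ± 0.19, adjusted p = 0.78), hsp90b1 (0.42 ± 0.16, adjusted p = 0.895), hsp70.3 (0.39 ± 0.14, adjusted p = 0.803), hspb6 (0.41 ± 0.16, adjusted p = 0.936) and hspe1 (0.24 ± 0.10, adjusted p = 0.981). None of them passed. The test of the difference between the drugs in their concentration effect gave 0 of 68 members, with 9 at an unadjusted p under 0.05 (13.2%, against 9.25% of all probe sets, of which 0.00645% were called).

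A list of 57 other genes of the chaperone network, such as prefoldins, HSP90 co-chaperones, mitochondrial proteases and lectin chaperones, had 42 measured genes. At 25 µg/L fluoxetine 1 of these fell and the other 41 gave no call, 0 passed at 250 µg/L fluoxetine, 1 fell at 25 µg/L sertraline and 0 passed at 250 µg/L sertraline. The 1 gene is 2.38% of the list, beside 2.53% of all probe sets called at 25 µg/L fluoxetine and 0.0645% at 25 µg/L sertraline. The gene that fell was the HSP90 co-chaperone fkbp5 in both cases, by 4.99 ± 0.26 (adjusted p = 1.05e-06) at 25 µg/L fluoxetine and by 2.19 ± 0.26 (adjusted p = 0.0107) at 25 µg/L sertraline. At 250 µg/L it had 9.17, 9.09 and 9.49 with fluoxetine and 9.57, 8.98 and 8.58 with sertraline. These were all below control, at 10.27, 10.18 and 10.28, without passing. The gene fkbp5 was also 3.99 ± 0.26 higher at 250 than at 25 µg/L fluoxetine (adjusted p = 2.98e-05) and 2.80 ± 0.26 higher in sertraline than in fluoxetine at 25 µg/L (adjusted p = 0.000141), in limma. Between the drugs the lectin chaperone gene canx was 0.62 ± 0.09 higher in sertraline at 250 µg/L (adjusted p = 0.00402). The mitochondrial import gene timm44, whose product recruits HSP70 to the inner membrane, was 0.37 ± 0.08 higher in sertraline at 25 µg/L (adjusted p = 0.0451). Between the drugs 2 of the 42 genes (4.76%) were called at 25 µg/L and 1 (2.38%) at 250 µg/L, beside 2.10% and 1.37% of all probe sets. Genes of this list were not tried in the alternative fits, and fkbp5, canx and timm44 are named because they were called.

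Array means of 11 exocrine pancreas genes had higher ranges with fluoxetine, overlapping control: 6.16 to 9.01 at 25 µg/L fluoxetine and 6.23 to 7.61 at 250 µg/L fluoxetine, against 4.87 to 6.40 in control, with 0 of 11 genes called in any comparison with control; the means were 5.55 to 6.55 at 25 µg/L sertraline and 6.15 to 6.38 at 250 µg/L sertraline, and 1 gene had a mean among the lowest 40% of probe sets. Their part in the chaperone results was not tested. A mean of 9 hepatocyte genes ranged from 7.08 to 9.34 and 8.56 to 9.70 at 25 and 250 µg/L fluoxetine and from 6.46 to 8.12 and 8.26 to 9.02 at 25 and 250 µg/L sertraline, against 7.70 to 8.48 in control, with 0 of 9 genes called. For these hepatocyte genes the arrays of 250 µg/L fluoxetine were all above control. A mean of 4 lens genes was 10.74 to 10.95 at 25 µg/L fluoxetine, 10.90 to 11.15 at 250 µg/L fluoxetine, 10.37 to 10.67 at 25 µg/L sertraline and 10.20 to 10.65 at 250 µg/L sertraline, against 10.61 to 10.82 in control, so that the arrays of 250 µg/L fluoxetine were all above control, with 0 of 4 genes called. The part of these lists was not tested either. A sign of RNA quality, the GAPDH 3' minus 5' control difference, was 1.53 to 2.36 and 1.16 to 1.74 at 25 and 250 µg/L fluoxetine, 1.95 to 2.17 and 1.77 to 3.16 at 25 and 250 µg/L sertraline, and 1.55 to 1.73 in control. With it as a covariate the counts of 7 and 6 members against control stayed at 7 and 6. Of all probe sets 2.54% and 1.14% were then called at 25 and 250 µg/L fluoxetine. With this covariate the count between the drugs at 250 µg/L was 1, hspb6. When fluoxetine 25 replicate 3 and sertraline 250 replicate 2, which had the highest GAPDH values, were omitted, the counts against control were 8 and 7 at 25 and 250 µg/L fluoxetine, where 6.51% and 1.44% of all probe sets were called. The count between the drugs at 250 µg/L was then 4, and the calls of hsf2 (adjusted p = 0.0733) and serpinh1b (0.0567) were lost. Both checks were chosen after seeing the data.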

How the data were processed

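GCRMA and Partek appear in the submitters' processing notes, with roles and versions not given in the sources used here. The log2 probe set values were used as deposited by the authors, from biotin-labelled material of 5 µg total RNA per array per the labels; they were not centred per gene or changed. Values ran from 0.737 to 15.49 over 15502 probe sets, after 115 control probe sets were left out, with array medians of 4.57 to 4.65. Array pairs correlated at r = 0.982 to 0.997 across probe sets, which are not independent replicates, and arrays of 25 µg/L fluoxetine correlated least within their group (0.986 to 0.992, against 0.994 to 0.997 in the other groups). The number of arrays limits the precision. Symbols came from the platform annotation: 10795 probe sets had 1 symbol, 135 several and 4572 none, and all 68 members matched the RefSeq table of assembly GRCz12tu.

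One mean per group was fitted in limma 3.58.1 (R 4.3.3; figures: Python 3.11.15, matplotlib 3.10.9) to all 15 arrays, and variances were moderated (residual degrees of freedom 10, prior 2.37), for 10 comparisons, with adjustment within each. The fit was tested on simulated data. Named genes were members called against control, plus fixed family representatives. The members and lists were chosen with earlier results of these data known. Beakers were the replicates per the labels, which say nothing of shared batches. Alternatives were median centring, quantile normalization, omission of the dimmest 40% of probe sets (mean under 3.90; 54 of 68 members remained), a trended and robust prior, array weights, a replicate block, means of a gene's probe sets, the 2 groups alone and omission of each array; 2 on RNA quality were chosen after seeing the data.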

Additional observations from a re-analysis of the deposited data

How the results depend on the processing

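When the 6 arrays of the 2 groups were fitted alone, 2 and 3 members were called against control at 25 and 250 µg/L fluoxetine. The shares of all probe sets called were then 0.581% and 0.393%, against 2.53% and 1.15% as reported. Between the drugs 4 and 3 members were called in such fits at 25 and 250 µg/L. At 25 µg/L 0.348% of all probe sets were then called between the drugs, against 2.10% as reported. Fits of 2 groups alone have fewer arrays. Between the fluoxetine concentrations 1 member was called after median centring, without the dimmest probe sets, with the trended prior or with means of a gene's probe sets (hspb6 each time) and without the 2 arrays with the highest GAPDH 3' minus 5' difference, an alternative chosen after seeing the data like the covariate below, (hspa4b), against 0 as reported. The shares called in these fits were 0.277%, 0.613%, 0.361% and 0.512% (of genes) and 0.729%, in that order, against 0.252% as reported. Between the drugs at 250 µg/L array weights gave 10 and the GAPDH covariate 1, against 5, and 4.31% and 0.310% of all probe sets, against 1.37%. The cause was not tested. Leaving out each array in turn gave 5 to 8 members at 25 µg/L fluoxetine and 1 to 7 at 250 µg/L fluoxetine against control, the 1 without fluoxetine 250 replicate 1 or control replicate 2 (2 without control replicate 3). It gave 5 to 11 and 2 to 7 between the drugs at 25 and 250 µg/L, the 5 without any sertraline 25 array and the 2 without fluoxetine 250 replicate 3 or sertraline 250 replicate 2. It gave 0 to 1 between the fluoxetine concentrations, 0 to 1 for the drug by concentration test, 6 to 8 for any difference and 0 in the sertraline comparisons with control and between sertraline concentrations. With the replicate block the counts were 7, 5, 8 and 5 for the fluoxetine comparisons with control and the drug comparisons. There hspd1 at 250 µg/L fluoxetine had adjusted p = 0.0738 in limma. This block gave 2.48% and 0.948% of all probe sets in the fluoxetine comparisons with control, and 1.54% between the drugs at 25 µg/L. Deviations of same-numbered arrays correlated at -0.32 to 0.40, and those of other numbers at -0.46 to 0.40, and 5 of 15 arrays correlated best with their own number, so the numbers were not taken to pair the beakers. No called difference of a named gene changed sign in any alternative, while 117 of 2935 values passing in neither fit did. Members with low probe set values may hide changes.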

Other observations

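A probe set annotated to 3 inducible HSP70 genes at once, and so assigned to none of them, gave 5.53, 5.95 and 6.17 at 25 µg/L fluoxetine and 5.51, 5.73 and 5.88 at 250 µg/L fluoxetine, against 5.45, 5.27 and 5.57 in control. The groups overlapped, and the differences of 0.45 ± 0.16 (adjusted p = 0.17) and 0.28 ± 0.16 (adjusted p = 0.612) did not pass in limma. In sertraline the values were 5.37, 5.05 and 5.36 at 25 µg/L and 5.72, 5.44 and 5.47 at 250 µg/L. This probe set may share probes or target sequence with the one used for hsp70.3 and is not treated as an independent measurement. A probe set annotated to both cytosolic HSP90 alpha genes gave -0.67 ± 0.43 and -0.11 ± 0.43 against control at 25 and 250 µg/L fluoxetine and did not pass. Second probe sets of 8 member genes, all with lower means than the ones used, gave 0 calls in each comparison.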
